A study of Mus musculus with 20 samples.

Results

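Lipid droplets are the cytoplasmic stores of neutral fat that contribute to the pale look of clear cell kidney tumors. The authors describe the tumors of this model as largely eosinophilic, with clear cells in a share that varied between and within tumors. By their account, none had the full look of classical clear cell carcinoma. The 10 genes described here were chosen by name from the 54532 genes of the count table, for their part in coating, filling or emptying these droplets. They are the perilipins Plin2, Plin3, Plin4 and Plin5, the triglyceride lipase Pnpla2 with its inhibitors Hilpda and G0s2, the triglyceride synthases Dgat1 and Dgat2, and the fatty acid transporter Cd36. All 10 had enough counts to be tested.

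The libraries are bulk RNA sequencing of 10 kidney tumors and 10 normal kidneys from C57BL/6 mice of the Cre-less AAV model. An adeno-associated virus (AAV) carrying sgRNAs against Keap1, Pbrm1, Vhl and Tsc1 was injected into a kidney of young adult LSL-Cas9/+; Pax8 Cre/+ mice of both sexes. In these animals the Pax8 promoter drives Cre in cells of the renal epithelium, and Cre turns on Cas9 and GFP from the Rosa26 locus. Both groups came from the same cohort, so the normal kidneys carried the Cas9 and Cre alleles too, and no library came from a mouse without them. A tumor library holds edited and unedited tumor cells together with stroma and immune cells, and in such bulk tissue fewer cells of a type and less RNA per cell cannot be told apart. The age of the mice when tissue was taken is not given in the labels.

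As background, triglyceride is made at the endoplasmic reticulum by DGAT enzymes, which add the last fatty acid to diacylglycerol. It is stored in droplets coated by perilipins and released by the lipase ATGL, which Pnpla2 encodes. ATGL is activated by ABHD5 and held back by the small proteins HILPDA and G0S2. HILPDA and PLIN2 are products of hypoxia-responsive genes, and PLIN2 protein accumulates with stored lipid because it is degraded when it is not bound to a droplet. In the normal kidney the proximal tubule lives largely on fatty acid oxidation and takes on droplets when it is fasted or injured.

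The libraries held 18447394 to 24902973 counts for tumors and 14737516 to 26679704 for normal kidneys. Among the guide targets, Vhl (log2 fold change −0.49, SE 0.118, adjusted p = 0.00179) and Tsc1 (−0.61, SE 0.181, adjusted p = 0.00871) were lower in tumors, Keap1 was higher (0.83, SE 0.0887, adjusted p = 1.3e-07), and Pbrm1 did not pass (−0.28, SE 0.188, adjusted p = 0.23; edgeR quasi-likelihood test, Benjamini-Hochberg). Small insertions and deletions need not change a transcript's level, so these values do not measure editing. The summed level of 4 genes of other nephron segments (Umod, Aqp2, Slc12a3 and Nphs1) was 3844 to 9141 CPM (counts per 1000000 counts of the library, after scaling) in normal kidneys and 0.326 to 8.86 CPM in tumors. Some libraries stood apart. Lcn2 and Havcr1, genes of injured tubule that were chosen here after their values were seen, were far higher in normal kidneys 5, 7 and 8 than in the other normal kidneys. Lcn2 was 2538, 3302 and 1765 CPM there, against 9.77 to 232 CPM in the other 7, and Havcr1 was 163, 1347 and 128 CPM against 3.18 to 35.7 CPM. Slc34a1, the phosphate transporter of proximal tubule, was 633, 140 and 310 CPM in those kidneys and 1885 to 3582 CPM in the others. Normal kidney 9 had the lowest scaling factor (0.7492) of all 20 libraries.

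Plin3, Plin4 and Hilpda rose and G0s2 and Dgat2 fell at an adjusted p under 0.05 (edgeR quasi-likelihood test, Benjamini-Hochberg over 15354 genes), and 5 of the 10 genes did not pass. Of all genes tested, 23.6% rose and 23.8% fell, so 3 and 2 of 10 were near the background. The median log2 fold change of the 10 genes was −0.33, against −0.021 over all genes tested. Without normal kidneys 5, 7 and 8, a comparison chosen after seeing the data, G0s2 no longer passed, and the counts were 4 higher and 1 lower, where 26.6% of all genes tested rose and 25.5% fell. The added gene was Plin2, and as the kidneys left out are the 3 with the most Plin2, the choice itself moves that gene upward and nothing is read from it.

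**Figure D1:**
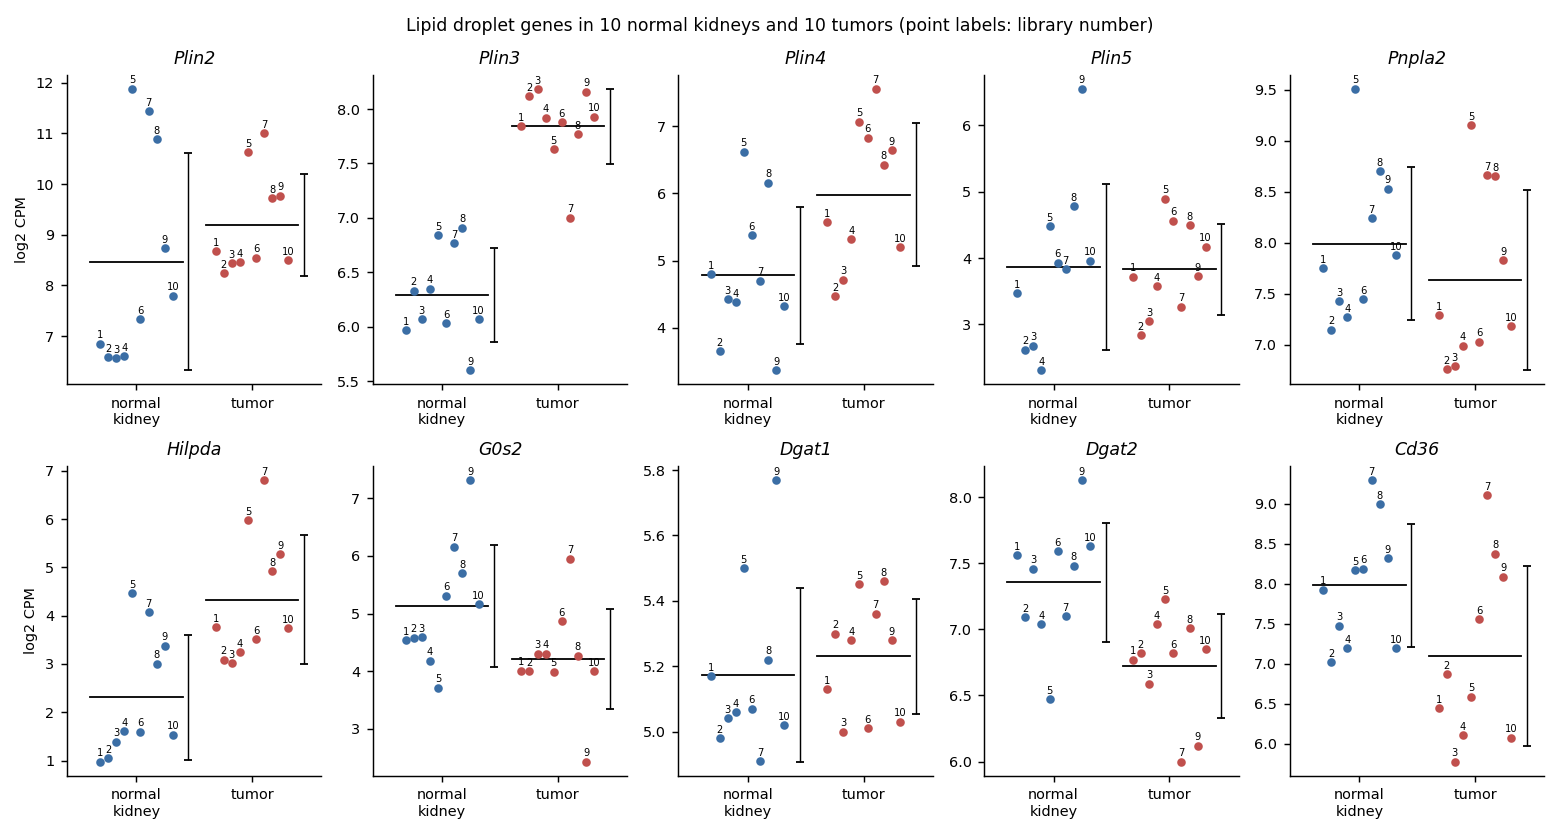
Level of each of the 10 genes in log2 CPM (y axis, with a scale of its own in each panel) in normal kidneys (blue) and tumors (red). Each point is a library labelled with its number, the line is the mean and the bar to its right the SD (n = 10 per group). All tumors lie above all normal kidneys for Plin3, whereas for Plin2 normal kidneys 5, 7 and 8 lie with or above the highest tumors.

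Sequence around annotated transcription starts is described here for Hilpda and Plin2, beside Plin3, which rose most evenly. Windows from 250 bases before to 50 bases after annotated starts (RefSeq, GRCm38.p6) were present for 8 of the 10 genes, Dgat1 and Dgat2 not among them. They were searched on both strands for ACGTG and GCGTG, the core that HIF binds. A core was found for 4 genes, Plin2, Plin5, Hilpda and G0s2, and 43.8% of all 32851 windows in the set hold at least 1. That share is per window, whereas the 4 is per gene, and Plin5 and Hilpda had more than 1 window each. The only windows of Plin3 (chr17:56290462-56290761, − strand) and Cd36 (chr5:17835847-17836146, − strand) lie inside their genes. In the count table these genes begin at 56292873 and 17888801, and those outer starts were not searched. The downstream start of Hilpda (chr6:29272376-29272675, + strand) held 3 cores, beginning 111, 43 and 8 bases before the start. Its upstream start (chr6:29272238-29272537, + strand) held only 1, the first of these 3, which begins 27 bases after that start. How many of all windows hold 3 was not computed. The Plin2 window (chr4:86670010-86670309, − strand) held an ACGTG beginning 3 bases before its start, inside a CACGTG (E-box) that reads the same on both strands, and a GCGTG on the opposite strand beginning 86 bases before it. The stretches are shown 5′ to 3′ with the core in capitals, because Hilpda and Plin2 are the pair whose levels followed each other most closely.
Hilpda chr6:29272505-29272529, + strand: accgcgagccGCGTGctttccgtga
Hilpda chr6:29272573-29272597, + strand: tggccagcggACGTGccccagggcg
Hilpda chr6:29272608-29272632, + strand: ggttcggtacGCGTGcgcagtctcc
Plin2 chr4:86670048-86670072, − strand: ctgggctatcACGTGgctcggaggc
Plin2 chr4:86670131-86670155, + strand: ggggatgaggGCGTGggaaccccaa
CACGTG occurred in 7.15% of all windows, and among the 10 genes only Plin2 had it in the windows searched. The antioxidant response core TGACNNNGC, present in 12.4% of all windows, and the exact DR1 element of PPAR receptors, present in 0.0396%, were in no window of the 8 genes. A match in such a window is a description of its letters and not a measured binding site.

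Among the perilipins, Plin2, the droplet coat of most cells outside fat, was the most variable gene of the 10 in normal kidneys. In CPM it lay at a lowest of 303, a median of 391 and a highest of 2045 in tumors, and at 94.8, 193 and 3778 in normal kidneys. Normal kidneys 5, 7 and 8 had 3778, 2778 and 1888 CPM, whereas the other 7 lay between 94.8 and 427 CPM. Tumors 5, 7, 8 and 9 were the highest tumors at 1580.0, 2045, 842 and 874 CPM, and the other 6 tumors lay between 303 and 407 CPM. The groups overlapped, with 6 normal kidneys below every tumor and 2 above every tumor. Over all 20 libraries Plin2 was not called (log2 fold change −0.37, SE 0.705, adjusted p = 0.694, edgeR quasi-likelihood test). On the log2 CPM scale the mean difference had the opposite sign at 0.73 (permutation test, p = 0.338). The log2 fold change was 2.12 without normal kidneys 5, 7 and 8, and 1.31 without libraries 5, 7 and 8 of both groups. Both values are descriptions with no test, because the kidneys left out are the 3 highest in Plin2 itself. The libraries with high Plin2 in normal kidney were also those with high Lcn2 and Havcr1 and low Slc34a1. Among the tumors, 5, 7, 8 and 9 had the most Lcn2 (18.4, 165, 38.1 and 17.5 CPM, against 0.474 to 3.64 in the other 6). They also had the least Slc34a1 (764, 130, 211 and 261 CPM, against 919 to 1845 in the other 6). Havcr1 did not follow, as it was highest in tumors 6 and 10 (586 and 538 CPM). The part of tubule injury in the result was not tested.

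Plin3, a perilipin found in nearly all cells that moves from cytosol to new droplets, separated the groups fully. It ranged from 128 to 289 CPM in tumors with a median of 239, and from 48.3 to 120 CPM in normal kidneys with a median of 73.7. All 10 tumors lay above every normal kidney, which was so for 5.87% of the genes tested (every tumor lay below every normal kidney for 4.74%). Plin3 was 2.88-fold higher in tumors (log2 fold change 1.52, SE 0.173, adjusted p = 3.05e-07, edgeR quasi-likelihood test). Normal kidneys 5, 7 and 8, high in Plin2, were also the highest of their group in Plin3 at 114, 109 and 120 CPM. Tumor 7, the highest tumor in Plin2, was the lowest in Plin3.

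Plin4, which is abundant in fat and muscle, had 22 CPM in the lowest tumor, a median of 66.9 and a highest of 188, against 10.2, 23.7 and 98.5 CPM in normal kidneys. Tumors 5, 6, 7 and 9 lay above every normal kidney and 5 normal kidneys lay below every tumor. The gene was 2.27-fold higher in tumors (log2 fold change 1.18, SE 0.441, adjusted p = 0.0322, edgeR quasi-likelihood test). It no longer passed in 9 of 20 fits that left out 1 library (normal kidneys 1, 2, 3, 4, 9 and 10, and tumors 5, 6 and 7), at the weakest without tumor 7 (0.94, adjusted p = 0.0733). It shares 17 bases with Hdgfl2 on the opposite strand, and no source used here says if strand was used in counting.

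Plin5, the perilipin of tissues that oxidise fat, ranged from 7.07 to 29.5 CPM in tumors (median 13.1) and from 4.84 to 93.7 CPM in normal kidneys (median 14.6). Normal kidney 9 stood alone at 93.7 CPM, and the next was normal kidney 8 at 27.4 CPM. The log2 fold change was −0.47 (SE 0.452, adjusted p = 0.414, edgeR quasi-likelihood test) and 0.19 without normal kidney 9 (adjusted p = 0.657).

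**Figure D2:**
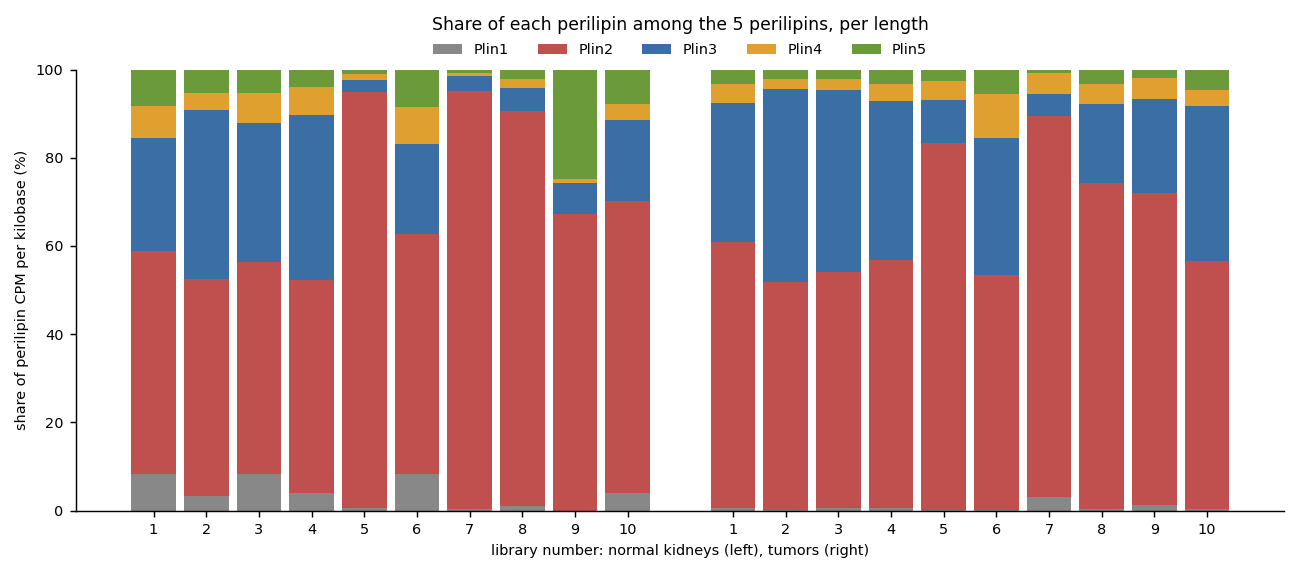
Share of each perilipin in the summed CPM per kilobase of the 5 perilipins (y axis, percent) in each library (x axis, normal kidneys at left and tumors at right). Plin2 made up 94.9% in normal kidney 7 and 86.4% in tumor 7, and Plin3 had a median share of 31.3% in tumors and 19.4% in normal kidneys.

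Per kilobase of transcript, Plin2 was the most abundant perilipin in every library. Its share of the 5 perilipins, with Plin1 of fat cells counted in, had a median of 58.3% in tumors (51.6% to 86.4%) and 60.3% in normal kidneys (48.1% to 94.9%). Plin3 came next by the median, with 5% to 43.9% in tumors and 2.65% to 38.3% in normal kidneys. Normal kidney 9 was set apart by Plin5, at 24.8% of its perilipin RNA. The per-library log2 ratio of Plin2 to Plin3 averaged 1.46 ± 1.29 over the tumors and 2.29 ± 1.87 over the normal kidneys (SD, n = 10 per group). The difference of −0.82 was within the spread of the libraries (permutation test, p = 0.26, adjusted over 4 ratios p = 0.305). It was 0.20 without normal kidneys 5, 7 and 8, a description only, as these have the highest ratios of their group. The verdict differed with same-numbered libraries as pairs, as given below.

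The lipase gene Pnpla2 did not pass in either direction in the edgeR fit without pairs. It ran from 108 to 569 CPM in tumors (median 151) and from 142 to 731 CPM in normal kidneys (median 225). Library 5 was the highest of both groups. Libraries 5, 7, 8 and 9 were the upper 4 in tumors and in normal kidneys alike, as they were for Plin2 and Hilpda. Tumors 2, 3, 4 and 6 lay below every normal kidney. The log2 fold change was −0.29 (SE 0.36, adjusted p = 0.532, edgeR quasi-likelihood test). It was 0.20 without normal kidneys 5, 7 and 8, which are among the 4 highest in Pnpla2, and −0.54 without libraries 5, 7 and 8 of both groups. Pnpla2 passed as lower in 2 of 29 alternative fits, among them the fit with same-numbered libraries as a block.

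Hilpda, the hypoxia-inducible inhibitor of this lipase, had the largest rise of the 10 genes. Its lowest, median and highest levels were 8.01, 13.4 and 112 CPM in tumors and 1.87, 2.94 and 22 CPM in normal kidneys. Tumors 5, 7, 8 and 9, at 63.2, 112, 30.2 and 38.6 CPM, lay above every normal kidney, and 7 normal kidneys lay below every tumor. Normal kidneys 5, 7 and 9 were the ones that reached into the range of the tumors, at 22, 16.7 and 10.3 CPM. Hilpda was 4.27-fold higher in tumors (log2 fold change 2.09, SE 0.594, adjusted p = 0.00628, edgeR quasi-likelihood test). Without normal kidneys 5, 7 and 8 the log2 fold change was 3.11, and without libraries 5, 7 and 8 of both groups it was 2.02, again as descriptions, since kidneys 5, 7 and 8 are among the 4 highest in Hilpda.

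G0s2, the other inhibitor, went the opposite way. It lay at a lowest of 5.31, a median of 17.6 and a highest of 61.8 CPM in tumors and at 13, 29.7 and 160 CPM in normal kidneys. The groups overlapped, with tumor 9 below every normal kidney and normal kidneys 7 and 9 above every tumor. G0s2 was 2.11-fold lower in tumors (log2 fold change −1.08, SE 0.429, adjusted p = 0.0439, edgeR quasi-likelihood test). It no longer passed in 12 of 20 fits that left out 1 library (normal kidneys 6, 7, 8 and 9, and tumors 1, 2, 3, 4, 5, 8, 9 and 10), at the weakest without normal kidney 9 (−0.61, adjusted p = 0.166). The gene lies within the span of Lamb3 on the opposite strand, and Lamb3 had 36 to 531 counts per library. Whether exons of the 2 overlap was not checked. Where they do, the 2 cannot be told apart if the counting ignored strand.

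**Figure D3:**
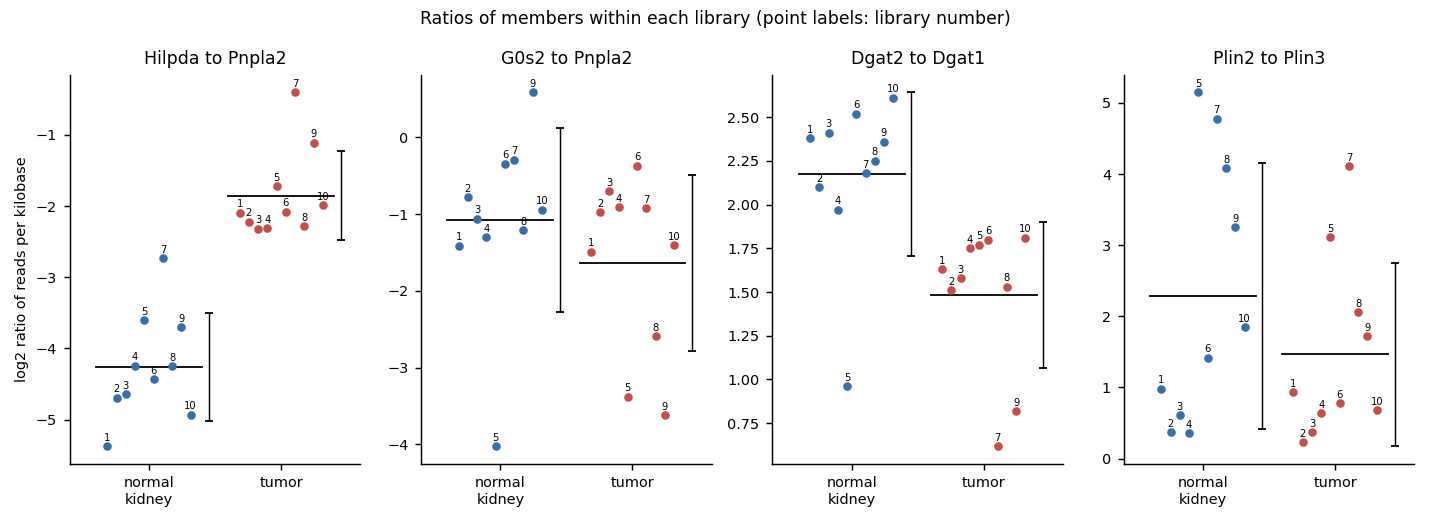
Log2 ratio of reads per kilobase of 4 pairs of genes within each library (y axis) for normal kidneys (blue) and tumors (red), with library numbers, means (line) and SD (bar, n = 10 per group). For Hilpda to Pnpla2 the lowest tumor (−2.32) lies above the highest normal kidney (−2.73), and the Dgat2 to Dgat1 ratio is low in tumors 7 and 9 and in normal kidney 5.

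Set against the lipase in the same library, which removes any scaling between libraries, Hilpda separated the groups fully, which it did not on its own. How many other pairs of genes do so was not computed. The log2 ratio of Hilpda to Pnpla2 averaged −1.85 ± 0.63 over the tumors and −4.26 ± 0.76 over the normal kidneys (SD, n = 10 per group). Tumors ran from −2.32 to −0.40 and normal kidneys from −5.37 to −2.73, so every tumor lay above every normal kidney. The difference of 2.41, a 5.3-fold higher ratio, had a permutation p of 1e-05, the smallest these resamples can give (adjusted over 4 ratios 4e-05). It was 2.72 without normal kidneys 5, 7 and 8, a description only, as kidneys 5 and 7 have the highest ratios of their group. The ratio of G0s2 to Pnpla2 was −1.63 ± 1.15 in tumors and −1.08 ± 1.20 in normal kidneys, a difference of −0.56 that lay within the spread (permutation test, p = 0.305, adjusted p = 0.305). It was −0.89 without normal kidneys 5, 7 and 8 and −0.89 without normal kidney 5 alone. Both are descriptions, as normal kidney 5 has the lowest ratio of its group. Normal kidney 5 and tumors 5 and 9 had the lowest values of that ratio at −4.02, −3.38 and −3.62.

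Dgat1, which makes triglyceride from incoming fatty acids, was the steadiest of the 10 genes. It ranged from 31.9 to 44 CPM in tumors (median 38.8) and from 29.9 to 54.3 CPM in normal kidneys (median 33.3), and the log2 fold change was 0.05 (SE 0.11, adjusted p = 0.755, edgeR quasi-likelihood test). Dgat2, which draws more on newly made fatty acids, had a lowest of 63.9, a median of 113 and a highest of 150 CPM in tumors, against 88.5, 177 and 280 CPM in normal kidneys. Tumors 7 and 9 lay below every normal kidney and 6 normal kidneys lay above every tumor. Dgat2 was 1.57-fold lower in tumors (log2 fold change −0.65, SE 0.181, adjusted p = 0.00555, edgeR quasi-likelihood test). It stayed lower at an adjusted p under 0.05 in each of 29 alternative fits, with fold changes between −0.81 and −0.50. The log2 ratio of Dgat2 to Dgat1 averaged 1.48 ± 0.42 over the tumors and 2.17 ± 0.47 over the normal kidneys (SD, n = 10 per group), a difference of −0.69 (permutation test, p = 0.00272, adjusted p = 0.00544).

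Cd36, which takes up long-chain fatty acids and is also made by endothelial cells, macrophages and fat cells, ranged from 54.9 to 553 CPM in tumors (median 107) and from 129 to 630 CPM in normal kidneys (median 266). There were 6 tumors below every normal kidney, while tumor 7, at 553 CPM, lay above 9 of the normal kidneys. The log2 fold change was −0.65 (SE 0.416, adjusted p = 0.206, edgeR quasi-likelihood test). Cd36 passed as lower in 4 of 29 alternative fits, among them the fit with same-numbered libraries as a block. Without tumor 7 the log2 fold change was −1.02, and without normal kidneys 5, 7 and 8 it was −0.16. Both are descriptions, since tumor 7 has the most Cd36 of the tumors and normal kidneys 7 and 8 the most of theirs.

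**Figure D4:**
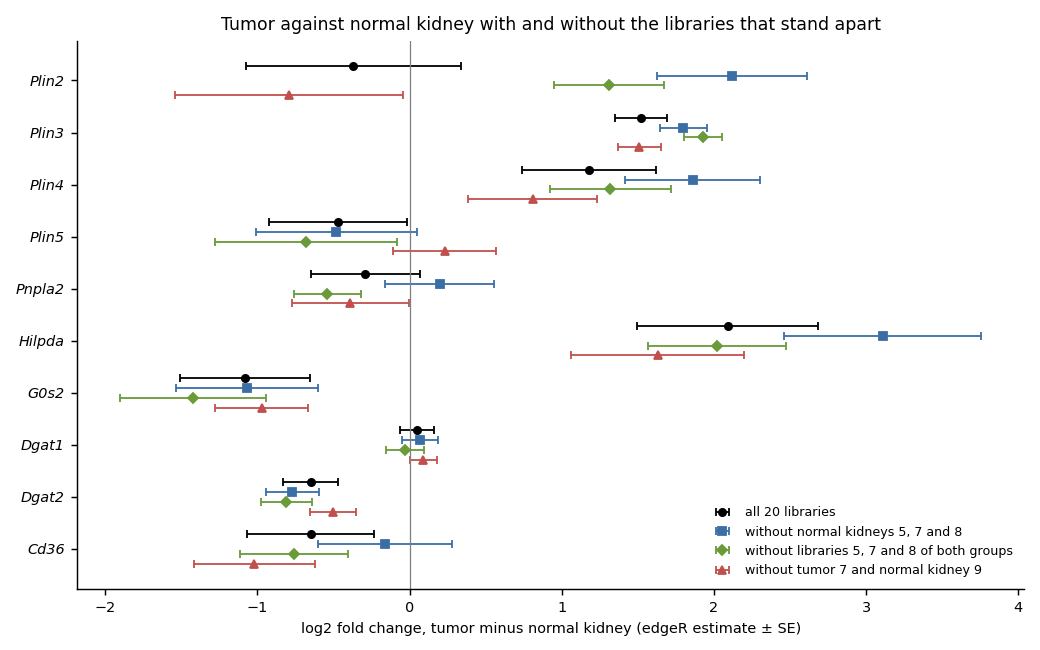
Log2 fold change of tumor against normal kidney (x axis, edgeR estimate with SE as bars) for each gene (y axis), with all 20 libraries and with libraries left out that were chosen after seeing the data. Plin2 lies at −0.37 with all libraries and at 2.12 without normal kidneys 5, 7 and 8, the 3 with the most Plin2, whereas Plin3, Hilpda, Dgat1 and Dgat2 keep their side or stay near 0.

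In levels per kilobase, the order of the 10 genes differed between the groups. In tumors the median CPM per kilobase ran from Plin2 at 111 through Plin3 at 63.2, Pnpla2 at 50, Dgat2 at 36.7, Cd36 at 29.7, G0s2 at 20.2, Dgat1 at 12.7, Hilpda at 12.1 and Plin4 at 11.6 to Plin5 at 6.3. Plin2 lay above Plin3 in every tumor, as the lowest Plin2 level was 86.3 and the highest Plin3 level 76.4 CPM per kilobase. All the other neighbours in that order overlapped in their ranges. In normal kidneys the median ran from Pnpla2 at 74.6 through Cd36 at 74.1, Dgat2 at 57.4, Plin2 at 54.9, G0s2 at 34.2, Plin3 at 19.5, Dgat1 at 10.9, Plin5 at 7.0 and Plin4 at 4.1 to Hilpda at 2.67, and every pair of neighbours overlapped.

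Some of the 10 genes varied together among the tumors. Across the 10 tumors, 5 of 45 pairs were correlated at an adjusted p under 0.05, all positively, and all were among Plin2, Plin4, Pnpla2 and Hilpda. The lowest r of these 5 was 0.84, and 1.81% of all pairs of 13770 genes had an r at least as high over the tumors. Plin3, Plin5, G0s2, Dgat1, Dgat2 and Cd36 were in no such pair, and r was −0.75 for Plin2 and Plin3 (permutation p = 0.00898, adjusted 0.0505; rho −0.71, adjusted 0.122), falling to −0.14 without the 2 farthest tumors. For Plin2 and Hilpda, Pearson's r was 0.99 (permutation p = 1e-05, adjusted over 45 pairs 0.00045) and Spearman's rho 0.98 (permutation p = 5e-05, adjusted 0.00105), and r was 0.97 without the 2 tumors farthest from the median of Plin2. For Plin2 and Pnpla2, r was 0.94 (permutation p = 0.00069, adjusted 0.0112) and rho 0.96 (p = 7e-05, adjusted 0.00105), with r = 0.92 without the 2 farthest tumors. For Plin2 and Plin4, r was 0.84 (permutation p = 0.00233, adjusted 0.021) and rho 0.92 (p = 0.00047, adjusted 0.00529), with r = 0.70 without the 2 farthest. These relations lean on tumors 5, 7, 8 and 9, which were separated from the other 6 in Plin2 by 0.38 of the group's log2 range. Those tumors also had the most Lcn2 and the least Slc34a1 of their group. Among the other 6 tumors, r was 0.76 for Plin2 and Hilpda (exact permutation test, p = 0.0611, adjusted 0.382; rho 0.89, adjusted 0.25) and 0.85 for Plin2 and Pnpla2 (p = 0.0236, adjusted 0.344; rho 0.94, adjusted 0.25). There, 0 of 45 pairs passed the adjustment and 5 had an unadjusted p under 0.05 in the exact permutation test of r. With 6 libraries a lone pair cannot pass, as the smallest possible p (0.00139 in that test) adjusts to 0.0625. Nothing is therefore read from that 0. In the normal kidneys, kidneys 5, 7 and 8 formed a cluster of their own in Plin2, with a gap of 0.40 of the range against 0.38 in the tumors. Over all 10 kidneys, 3 of 45 pairs were correlated at an adjusted p under 0.05 (permutation test of r). All were positive and among Plin2, Pnpla2 and Hilpda, so such pairs were not particular to tumors. How many pairs of all genes were as closely correlated over the kidneys was not computed. The count of 3 is therefore not read as a result about these genes. The pooled r of these pairs is not given because of that cluster. Among the other 7, r was 0.91 for Plin2 and Pnpla2 (exact permutation test, p = 0.0105, adjusted 0.0357; rho 0.86, adjusted 0.0893) and 0.86 for Plin2 and Hilpda (p = 0.0331, adjusted 0.0664; rho 0.54, adjusted 0.424). Both r values were lower without normal kidney 9. Without it, among 6 kidneys, r was 0.72 for Plin2 and Pnpla2 (exact permutation test, p = 0.113, adjusted 0.338) and 0.43 for Plin2 and Hilpda (p = 0.397, adjusted 0.616), and 0 of 45 pairs passed the adjustment (5 at an unadjusted p under 0.05). As with the 6 tumors, nothing is read from that 0.

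**Figure D5:**
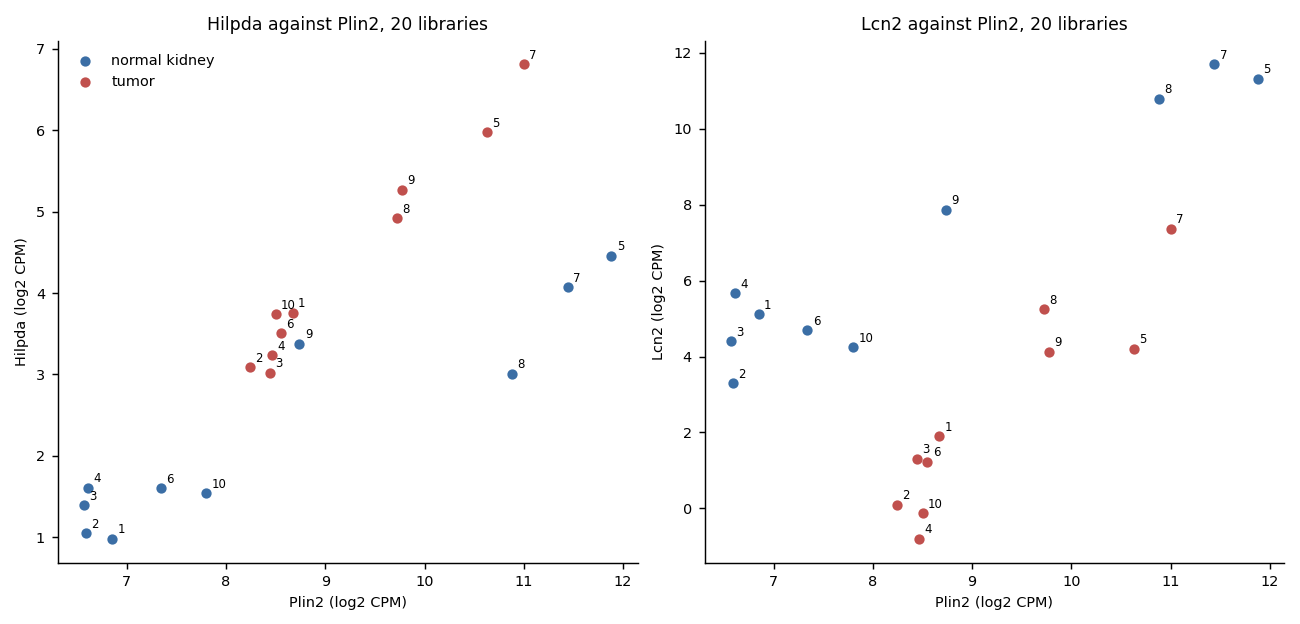
Hilpda (left) and Lcn2 (right) against Plin2 in the 20 libraries, all in log2 CPM, with normal kidneys in blue, tumors in red and library numbers beside the points. Tumors 5, 7, 8 and 9 lie at the top of both genes at left, and normal kidneys 5, 7 and 8 hold the highest Lcn2 and Plin2 at right.

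Of 13770 genes compared over the 10 tumors, Hilpda was the gene whose log2 CPM was most like that of Plin2, and Plin2 the gene most like Hilpda (r = 0.99). Ell and Wasf2 came next for Plin2 (r = 0.98 each) and Csrnp1 and Rgs1 for Hilpda (0.98 each). Those nearest to Plin3 were Ces2e (0.98), Ttc41 and Atg16l2 (0.97 each), and those nearest to Dgat2 were Setd3, Atp6v0a4 and Mpc1-ps (0.99 each). For Pnpla2 they were Zscan25 and Bcar1 (0.98 each) and Camk2d (0.97). For Plin4 they were Tmem65 and Rbm39 (0.96 each) and Mdm2 (0.95), and for Cd36 Capn5, B4galnt1 and Gm17494 (0.93 each). These are descriptions over 10 libraries, and the genes compared share those libraries.

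The 4 highest tumors and the 4 highest normal kidneys bore the same numbers, for Plin2, Pnpla2 and Hilpda libraries 5, 7, 8 and 9, and for Cd36 libraries 6, 7, 8 and 9. For Plin3 none of the 4 numbers was shared, and for Dgat2 1 was. Nothing in the labels ties a number to a mouse. Among genes chosen here after their values were seen, Pdk4, which spares glucose when fat is burned, was highest in library 5 of both groups at 2855 CPM in the tumor and 2628 CPM in the normal kidney. It was 1196 CPM in normal kidney 8 and 762 CPM in normal kidney 7, against 26.3 to 573 CPM in the other 7. Angptl4, a secreted inhibitor of lipoprotein lipase that answers to fasting and hypoxia, was 667 CPM in tumor 5 and 581 CPM in tumor 7, and no tumor was below 72.7 CPM. In the normal kidneys it ranged from 20.4 to 489 CPM, highest in kidney 9, and kidneys 5, 7 and 8 had 303, 305 and 313 CPM beside 312 CPM in kidney 10. Whether fasting, injury or oxygen moved the droplet genes in these libraries was not tested.

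Fat tissue around the kidney is another source of perilipin, Cd36 and G0s2 RNA. The summed level of 8 fat cell markers (Adipoq, Lep, Retn, Cfd, Plin1, Cidec, Lipe and Adrb3) ran from 17.4 to 1099 CPM in tumors (median 123) and from 51.9 to 442 CPM in normal kidneys (median 311), and 0 of 8 passed in the edgeR quasi-likelihood test or in DESeq2 (1 at an unadjusted p under 0.05 in each), whereas 7 of 8 passed as lower in tumors in limma-voom with quality weights. Adipoq, at 65.9 CPM, and Plin1, at 96.6 CPM, were highest in tumor 7, the tumor with the most Plin2, Plin4, Hilpda, G0s2 and Cd36. In normal kidney 9, which had the most G0s2 and Plin5, Adipoq and Plin1 both had 0 counts, which allows up to 3 counts in the library. Without tumor 7 and normal kidney 9, the log2 fold change of Hilpda was 1.63 (adjusted p = 0.0204), that of G0s2 −0.97 (adjusted p = 0.0112) and that of Cd36 −1.02 (adjusted p = 0.0345), while Plin4 no longer passed (0.81, adjusted p = 0.112). These are descriptions, since tumor 7 is the highest tumor in each of these genes and normal kidney 9 the highest kidney in G0s2. The 3 brown fat markers Ucp1, Cidea and Elovl3 summed to at most 0.427 CPM in tumors and to between 0.44 and 58.3 CPM in normal kidneys.

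Of 24 tested markers of other cells 10 passed in either direction, or 41.7%, against 47.5% of all genes tested. Of 8 macrophage markers 5 rose and 0 fell, and their sum ran from 331 to 2053 CPM in tumors and from 130 to 540 CPM in normal kidneys, highest in tumor 7. Of 7 endothelial markers 1 rose (Cdh5) and 1 fell (Flt1), with sums of 276 to 804 CPM in tumors and 360 to 551 CPM in normal kidneys. Of 8 proximal tubule markers 7 were tested and 2 fell (Slc5a2 and Slc22a8). Their sum ran from 844 to 8567 CPM in tumors and from 1159 to 9591 CPM in normal kidneys, lowest in library 7 of both groups. Of 7 skeletal muscle markers 2 were tested, Acta1 rose (4.12 to 24.8 CPM in tumors, 0.0923 to 0.863 CPM in normal kidneys) and Mylpf did not pass (0.19, adjusted p = 0.567), while Myh1 was at 0 in every tumor. The part of these cells in the levels of the droplet genes was not tested.

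Around the 10 genes, the wider pathway was divided. Of 65 listed genes of droplets and triglyceride metabolism, 63 were in the table and 61 had enough counts. Among these, 17 rose, 16 fell and 28 did not pass (edgeR quasi-likelihood test), with a median log2 fold change of 0.03 against −0.021 over all genes. These shares were near the background of 23.6% and 23.8%.

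Of the droplet proteins and the proteins that form droplets, 3 of 10 tested rose, among them Bscl2, which encodes seipin (0.81, SE 0.184, adjusted p = 0.00102), and none fell. Plin1 had a log2 fold change of −0.34 (SE 0.774, adjusted p = 0.741) and Cidec, which fuses droplets, of 0.16 (SE 0.598, adjusted p = 0.845). In lipolysis 2 of 8 rose and 4 fell. Abhd5, the activator of the lipase, was 60.2 to 74.2 CPM in tumors and 31.2 to 50.7 CPM in normal kidneys, with all tumors above all normal kidneys (0.66, SE 0.0905, adjusted p = 3.91e-06). Lipa, the lysosomal acid lipase, rose 5.9-fold, from a median of 210 to 1442 CPM (2.56, SE 0.222, adjusted p = 6.33e-09). The carboxylesterases Ces1d and Ces1f, hydrolases of the endoplasmic reticulum, fell (log2 fold change −3.32 and −4.95, adjusted p = 9.2e-08 and 2.18e-07), and they belong to a gene family with close copies. Lipe, the hormone-sensitive lipase, did not pass (−0.79, SE 0.373, adjusted p = 0.0866).

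In glycerolipid synthesis 4 of 15 rose and 3 fell. Mogat2, which makes diacylglycerol from monoacylglycerol, was 3.95-fold higher (1.98, SE 0.464, adjusted p = 0.00139), and Gk, the glycerol kinase, was 4.48-fold lower (−2.16, SE 0.312, adjusted p = 7.49e-06). Soat1, which esterifies cholesterol for droplets, ran from 96.6 to 169 CPM in tumors and from 17.2 to 32.4 CPM in normal kidneys (2.36, SE 0.119, adjusted p = 3.71e-12), while Soat2 did not pass (0.75, SE 0.4, adjusted p = 0.13). Of 5 fatty acid activating enzymes 2 fell (Acsl1 and Acsl6) and none rose.

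Uptake and carriage of fatty acids split evenly, with 5 of 13 higher and 5 lower. Lpl, the lipoprotein lipase, was 19.4 to 105 CPM in tumors and 179 to 512 CPM in normal kidneys (−2.97, SE 0.314, adjusted p = 1.16e-07). Gpihbp1, the endothelial anchor of that lipase, was 79.3 to 192 CPM in tumors and 4.19 to 44.6 CPM in normal kidneys (2.74, SE 0.359, adjusted p = 2.18e-06). The lipoprotein receptor Vldlr rose by 2.92-fold (1.54, SE 0.201, adjusted p = 2.06e-06). Fabp3, a cytosolic fatty acid carrier, fell from a median of 56.4 CPM to 1.5 CPM (−5.16, SE 0.406, adjusted p = 1.52e-09). The acyl-CoA synthetase Slc27a2 fell by 4.09-fold (−2.03, SE 0.35, adjusted p = 6.24e-05). Fabp1 did not pass (−0.59, SE 0.406, adjusted p = 0.242). Both genes of lipoprotein export, Mttp and Apob, fell (−1.85 and −0.98, adjusted p = 2.73e-05 and 0.0323).

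Among 6 regulators, 2 rose and none fell. Pparg, the nuclear receptor that drives fat storage genes in fat cells, was 16.5 to 31.4 CPM in tumors and 2.45 to 6.21 CPM in normal kidneys (2.57, SE 0.19, adjusted p = 6.54e-10). Ppara, its counterpart for fatty acid oxidation, had a log2 fold change of −0.51 (SE 0.227, adjusted p = 0.0699), the coactivator Ppargc1a of −0.51 (SE 0.327, adjusted p = 0.207) and the sterol-regulated factor Srebf1 of 0.43 (SE 0.181, adjusted p = 0.0576), and these 3 did not pass. All values of this pathway list are edgeR quasi-likelihood estimates with Benjamini-Hochberg adjustment over 15354 genes.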

How the data were processed

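RNA of flash frozen, pulverized tissue was extracted with Trizol, and poly(A) libraries were sequenced as read pairs by a company. The authors deposited raw read counts per gene, with no normalization. The labels name the build mm10, and the aligner, the counting tool and the use of strand are not given in the sources used here. Groups came from the sample titles, and 0 columns of values were left unused. From the deposited counts, TMM factors, CPM and the quasi-likelihood test were computed with edgeR 4.0.16 (R 4.3.3, count minimum of 10, no covariate, 15354 genes, Benjamini-Hochberg, called under 0.05). Log2 CPM had a prior count of 2. Ratios used reads per kilobase with a prior count of 0.5, and permutation tests were two-sided with 100000 resamples, or exact for groups of 6 or 7. Alternatives were DESeq2 1.42.0, limma 3.58.1, other scaling, no filter, a replicate block and leaving libraries out. The tests were first tried on simulated data.

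The 10 genes, the pathway list and the marker lists were chosen with earlier results of these data known, and the pathway genes named are the 6 largest changes in each direction, up to 6 not called, and Plin1, Abhd5 and Cidec. Bscl2, Acsl1, Acsl6, Mttp and Apob were named after their values were seen, as were the marker genes named singly. Ldaf1 and Spart were not matched, though Tmem159, an older name of Ldaf1, was, and Cidea and Hsd17b13 had too few counts. Total counts per library, 14737516 to 26679704, and the spread between libraries together set the precision. The labels do not say that the 10 libraries of a group are separate animals. The methods describe 10 mice, and p-values measure the spread between these libraries.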

Additional observations from a re-analysis of the deposited data

Results flagged for a closer look

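Among 28 groups of values tested for a library far from the rest (each gene and each ratio in each group), 3 had a lone extreme library by Dixon's test, and chance gives about 1 in 20. Tumor 7 had the lowest Plin3 of the tumors at 7.00 log2 CPM, and this gap took up 0.54 of the group's range. Tumor 7 also had the most fat cell and macrophage marker RNA of the tumors. Normal kidney 5 had the lowest ratio of G0s2 to Pnpla2 of its group, at −4.02 on the log2 scale with a gap of 0.57 of the range. It also had the lowest ratio of Dgat2 to Dgat1 of its group, at 0.96 with a gap of 0.61. Normal kidney 5 was the kidney with the most Plin2, Pnpla2, Hilpda and Pdk4. The cause of these values was not tested.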

How the results depend on the processing

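Plin3, Hilpda and Dgat2 kept their direction and their side of the threshold in all 29 alternative fits of the gene tests, and the counts of pathway genes stayed within 1.5 times of 17 and 16 (13 to 23 higher, 15 to 22 lower). Plin4 passed in 18 of 29 fits and G0s2 in 14 of 29, where the values lay between 0.81 and 1.86 and between −1.42 and −0.57. Plin2 depended on the libraries and on the model. It was 1.56 (adjusted p = 0.0018) in limma-voom with quality weights, 0.77 (0.101) with the replicate block, 2.12 without normal kidneys 5, 7 and 8 (those with the most Plin2), 1.31 without libraries 5, 7 and 8 of both groups, and 0.73 as a difference of mean log2 CPM. Leaving out 1 library gave −0.68 to 0.19 for Plin2, the last without normal kidney 5, and −0.63 to 0.19 for Plin5, the last without normal kidney 9. Plin5 was 0.59 in limma-voom, 0.02 with the replicate block and 0.23 without tumor 7 and normal kidney 9. Dgat1 was −0.05 with library totals, −0.07 with upper quartile factors and −0.03 without libraries 5, 7 and 8 of both groups. Pnpla2 was 0.20 without normal kidneys 5, 7 and 8. Members lower in tumors numbered 1 with no filter on low counts and without normal kidneys 5, 7 and 8, and 1 to 3 when 1 library was left out, where G0s2 or Cd36 crossed the threshold. The ratio of Plin2 to Plin3 was 0.20 without normal kidneys 5, 7 and 8, and −0.82 (adjusted p = 0.0208) with same-numbered libraries as pairs. Correlated pairs numbered 8 in tumors with library totals, 3 to 9 without 1 tumor and 0 in the 6 tumors with least Plin2, and 2 to 11 without 1 normal kidney and 15 in the 7 kidneys with least Plin2, where 0 passed without normal kidney 9. With 6 libraries a lone pair cannot pass, so nothing is read from either 0. The causes of these differences were not tested beyond the libraries named.

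Both groups carry the numbers 1 to 10. Same-numbered deviations from the group means correlated over 0.1 in 9 of 10 numbers (0.19 to 0.38), and at −0.14 in number 9. Y-linked genes were over 1 CPM in both or in neither library of all 10 numbers, and the methods describe 10 mice, but no label says that a number marks a mouse. As no label ties a number to a mouse, and number 9 was under 0.1, the main fits use no pairs. The closest library of the other group bore the same number for 8 of 10 tumors and 5 of 10 normal kidneys, a hint from the data and not the design. With the replicate block, Pnpla2 (−0.36, adjusted p = 0.0254) and Cd36 (−0.88, adjusted p = 0.00157) passed and G0s2 (−0.77, adjusted p = 0.121) did not, and the counts of members were 3 higher and 3 lower.

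Depth did not limit the members, each of which had counts in every library. Overlapping genes on the opposite strand limit G0s2 and Plin4.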
